A study of Mus musculus with 6 samples.

Results

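The miR-183/96/182 cluster consists of 3 microRNA genes that lie together on mouse chromosome 6 and are read from 1 long primary transcript. Its genes Mir183, Mir96 and Mir182 were followed here as 3 of the 23420 rows of a count table of retinal RNA, found by their gene symbols. The cluster was selected on the light versus control comparison, by the log2 fold change and adjusted p of Mir96, which was among the genes lower after light exposure. The light versus control values of its members are therefore given as a description only.

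Mouse retinas of 3 groups were sequenced, with 2 libraries a group. The controls were untreated, and the light group was taken 4 days after 1 h of light at 10000 lux, which injures photoreceptors. The third group, called light with minocycline, had the same light exposure and 45 mg/kg of minocycline, a tetracycline with anti-inflammatory action, injected intraperitoneally each day for 4 days. The sample labels name the albino stock CD1, whereas the methods of the study name BALB/cJ mice and another light intensity and injection schedule. No vehicle group and no group with minocycline alone were analysed here, so an action of the drug on unexposed retinas cannot be told apart from one after light. Per the methods of the study, mice on a daily cycle of light and dark were adapted to darkness before the exposure, kept dark through the following night and then returned to normal lighting. The hour of tissue collection and the lighting at that moment are not given in the sources used here.

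A microRNA is cut from a hairpin in a longer transcript, first by Drosha with Dgcr8 in the nucleus and then by Dicer1 in the cytoplasm. The mature strand guides an Argonaute protein to messenger RNAs through its seed, bases 2 to 8, and lowers their stability or translation. The cluster is abundant in photoreceptors and other sensory cells, its loss leads to photoreceptor defects, and in the retina its members are known to rise in light and decay in darkness. The libraries were made from poly-A RNA and read as 50-base fragments. A read over a hairpin therefore comes from the uncut primary transcript, and the counts say nothing direct about the mature microRNAs of about 22 bases.

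In the RefSeq annotation of GRCm38.p6, the build of the study's alignment (mm10), all 3 genes lie on the minus strand. Mir183 is at chr6:30169668-30169737, Mir96 at chr6:30169446-30169551 and Mir182 at chr6:30165918-30165992. Mir183 and Mir96 are 116 bases apart and Mir182 follows 3453 bases further downstream. All 3 lie inside the long non-coding RNA gene Mirc35hg, also called linc_miR96, at chr6:30158640-30174125, and no other RefSeq gene overlaps them. Mirc35hg has no row in the count table, so its transcript was read only through the hairpin rows, which count it while uncut. How fast the hairpins were cut was not measured. The hairpins are shown because they are the stretches over which the reads were counted, with the mature strand of the 5′ arm in capitals:

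Mir183 hairpin: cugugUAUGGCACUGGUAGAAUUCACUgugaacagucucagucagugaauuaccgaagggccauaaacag

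Mir96 hairpin: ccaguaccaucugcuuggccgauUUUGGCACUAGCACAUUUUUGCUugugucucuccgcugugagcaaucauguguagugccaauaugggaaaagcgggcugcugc

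Mir182 hairpin: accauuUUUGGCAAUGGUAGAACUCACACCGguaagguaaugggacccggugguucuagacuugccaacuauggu

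The annotated hairpins measured 70 bases for Mir183, 106 for Mir96 and 75 for Mir182, so that Mir96 offers the longest target for a read. The mature sequences, also from RefSeq, show how closely the members resemble each other, with the seed in capitals:

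miR-183-5p: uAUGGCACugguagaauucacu

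miR-96-5p: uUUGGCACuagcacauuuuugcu

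miR-182-5p: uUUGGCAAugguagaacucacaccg

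Counted from 1 at the 5′ end, the seed of miR-96 differs from that of miR-183 by A2U, and the seed of miR-182 differs from that of miR-96 by C8A. The seeds of miR-183 and miR-182 differ at both positions, A2U and C8A. No 2 members thus share a seed, although miR-183 and miR-182 are alike along their whole length. Among 1679 mature mouse microRNAs, only miR-1271-5p shared a seed with a member, that of miR-96.

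The libraries held 15205930 to 22856922 counts and 16594 to 17421 detected genes. Levels are given as counts per 1000000 counts (CPM), scaled to library sizes adjusted by the trimmed mean of M values (TMM). A gene with 0 counts could still be present at up to 3 counts, or 0.131 to 0.213 CPM. Control 1 alone held 77778 counts of Xist, against 25 to 188 in the other libraries, and 11 counts of 4 Y-linked genes, against 6532 to 12858. The summed CPM of 18 rod markers was 122000 ± 19700 (SD, n = 2) in control, 69500 ± 16200 after light and 120000 ± 7960 with minocycline. That of 15 microglia markers ranged from 81.8 to 90.2 in control, 563 to 1750 after light and 81.3 to 159 with minocycline. The 2 minocycline columns carry the same header and are called minocycline A and B. The labels call the samples replicates but do not say which animals they came from.

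Mir182 was the most abundant of the 3 rows. Control 1 and 2 held 123 and 85 counts of it, light 1 and 2 held 42 and 37, and minocycline A and B held 82 and 113. On the CPM scale these levels were 8.75 and 5.99 in control, 2.45 and 1.76 after light, and 3.57 and 5.99 with minocycline. Both light libraries lay below all others, and minocycline A lay between them and the controls, whereas minocycline B equalled control 2.

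Mir96 held 30 and 16 counts in the controls, 4 and 8 after light and 15 and 26 with minocycline. Its levels were 2.13 and 1.13 CPM in control, 0.234 and 0.38 after light, and 0.653 and 1.38 with minocycline. The order of the groups was that of Mir182, with control 1 highest and minocycline B above control 2.

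Mir183 was near the limit of detection. Only 10 and 8 counts were found in control, 3 and 5 after light, and 4 and 9 with minocycline. The levels were 0.711 and 0.564 CPM in control, 0.175 and 0.238 after light, and 0.174 and 0.477 with minocycline. Minocycline A was thus as low as light 1, and only minocycline B lay above both light libraries.

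**Figure D1:**
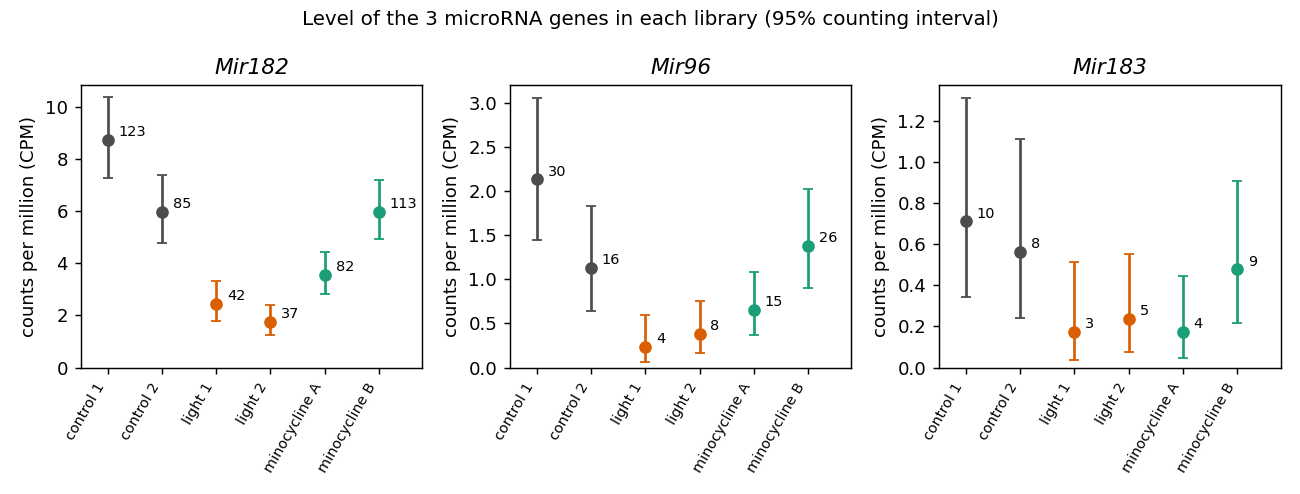
Level of Mir182, Mir96 and Mir183 in each of the 6 libraries in CPM, with the exact 95% Poisson interval as bar and the raw count beside each point. Both light libraries lie below both controls for each gene, and the minocycline libraries lie between or overlap the controls, except for Mir183, where minocycline A is at 0.174 CPM.

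For all 3 members both light libraries were lower than both controls, as they were for 30.3% of the 14349 genes tested, and both were higher for 30.6%. The intervals of the counts cover counting error only and hold no variation between animals or libraries. Reads copied by PCR are not independent molecules, so even the counting error may be larger than shown. The mean of Mir182 was 7.37 ± 1.95 CPM (SD, n = 2) in control and 2.11 ± 0.492 after light, 28.6% of control. That of Mir96 was 1.63 ± 0.711 and 0.307 ± 0.103, or 18.8%, and that of Mir183 was 0.637 ± 0.104 and 0.206 ± 0.044, or 32.4%. From the pooled counts alone, the light level was 28.1% of control for Mir182 (95% interval 21.4 to 36.6), 19.3% for Mir96 (9.32 to 37.1) and 32.9% for Mir183 (12.4 to 79.6). The 3 intervals overlapped, and whether the members differed in this was not tested.

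The summed counts of the 3 members were 163 and 109 in control, 49 and 50 after light and 101 and 148 with minocycline. The sum was 9.63 ± 2.77 CPM in control, 2.62 ± 0.345 after light and 6.12 ± 2.44 with minocycline. The 2 light libraries were nearly equal, whereas the controls and the minocycline libraries each spread widely.

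The fit across all genes in edgeR gave a log2 fold change of −2.35 (SE 0.56) for Mir96 after light, −1.81 (SE 0.36) for Mir182 and −1.88 (SE 0.33) for the summed counts. Mir183 had too few counts for the filter of this fit. Without the filter its log2 fold change was −1.57. Of 14349 genes tested, 1079 or 7.52% rose and 545 or 3.8% fell after light at an adjusted p under 0.05. Ranked by fold among the 545 lower genes, Mir96 was at position 1 and Mir182 at position 5. The study counted a gene as changed at a log2 fold change of at least 2, and 4 lower genes or 0.0279% met this together with the adjusted p. Just inside that limit were Mir96, 9130227L01Rik at −2.22, Prss56 at −2.17 and Cldn2 at −2.13, and just outside were Mir182 and Agtr1a, at −1.77. These are the values that chose the members. The adjusted p of Mir96 in edgeR, 0.0257, was 0.0853 in DESeq2 and 0.0567 to 0.17 with 1 library left out, so that its place inside the limit depended on the test and on each of the 4 libraries. The adjusted p of Mir182, 0.0165, was 0.0858 without control 1 and 0.0818 without control 2, and that of the summed counts, 0.0132, was 0.0701 and 0.0638.

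The comparison of light with minocycline versus light was not used to choose the members, although it shares the light libraries. Mir182 and Mir96 were higher in both minocycline libraries than in both light libraries, as were 26% of the genes tested, while 28.8% were lower in both. Mir182 stood at 227% of its light level, with a log2 fold change of 1.20 (SE 0.41) and an adjusted p of 0.157 in edgeR. Mir96 stood at 331%, with a log2 fold change of 1.69 (SE 0.60) and an adjusted p of 0.174. With 1 library left out, the log2 fold change of Mir96 ranged from 1.06 without minocycline B to 2.16 without minocycline A. That of Mir182 ranged from 0.77 to 1.55, without the same libraries. For the summed counts, the log2 fold change was 1.24 (SE 0.39) with an adjusted p of 0.139. No member passed the test, in a comparison where 0.0136% of 14750 genes were called higher and 0.0407% lower. From counting error alone, the pooled summed counts were 229% of the light level (95% interval 181 to 293), and those of Mir183 were 148% (56.9 to 413). Mir183 overlapped between these groups. The summed CPM of 10 markers of the retinal pigment epithelium was 409 and 1530 in minocycline A and B, against 154 to 420 in control and 174 to 240 after light, so that only B lay above all control and light libraries. Pmel, a protein of pigment granules chosen after its values were seen, had 72.1 and 341 CPM there and 0.924 to 13 in the other libraries. The markers did not move together. Tyr, Tyrp1, Dct and Pmel had log2 fold changes of 4.13 to 5.57 against light in edgeR, without passing. Rpe65, Lrat, Rgr, Rdh5 and Ttr had −0.70 to 0.31 against light and −0.91 to −0.39 against control. The part of these markers in the values of the cluster was not tested.

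The comparison of light with minocycline versus control shares the control libraries with the choice of the members. Mir182 with minocycline was 64.9% of control, with a log2 fold change of −0.58 (SE 0.35) and an adjusted p of 0.742 in edgeR, and it was −1.04 without minocycline B and −0.26 without minocycline A. Mir96 was 62.3% of control, at −0.65 (SE 0.52) and an adjusted p of 0.752, and its log2 fold change was −1.30 without minocycline B and −0.13 without control 1. The libraries of Mir182 and Mir96 overlapped, whereas Mir183, at 51.1% of control, was lower in both minocycline libraries and was not tested. Of the genes tested, 24% were lower in both minocycline libraries than in both controls and 15.9% higher. None of the members was called, where 0.162% of 14181 genes were called higher and 0% lower. A p that misses the threshold does not show that the levels were equal. The summed counts had a log2 fold change of −0.61 (SE 0.35, adjusted p = 0.742), which ranged from −1.13 to −0.26 with 1 library left out, and their libraries overlapped.

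The share of each hairpin in the summed counts shows whether the members moved in step. Over all libraries, Mir182 took 77.7% of 620 counts (95% Clopper-Pearson interval 74.3 to 81), Mir96 16% (13.2 to 19.1) and Mir183 6.29% (4.51 to 8.5). Mir182 took 76.5% in control, 79.8% after light and 78.3% with minocycline. Mir96 took 16.9%, 12.1% and 16.5%, and Mir183 took 6.62%, 8.08% and 5.22%. The intervals of the groups overlapped for every member, so a change in the composition of the cluster was not detectable at 99 to 272 counts a group. Per 100 bases of hairpin, Mir182 stood at 11.7 and 7.98 CPM in control, Mir96 at 2.01 and 1.06 and Mir183 at 1.02 and 0.805. On that scale per length, Mir182 remained the highest row in every library, and how reads at the ends of a hairpin were assigned is not stated.

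The cluster is expressed in rods and cones, and whole retinas were sequenced. Fewer photoreceptors and less of the uncut transcript in each photoreceptor cannot be told apart in such libraries. The summed counts were therefore also set against photoreceptor markers, a scale chosen after the values were seen. Per 1000000 counts of the 18 rod markers, the cluster held 85 and 70.8 in the controls, 35.3 and 40.9 after light, and 38.4 and 62.3 with minocycline. Means on the rod scale were 38.1 ± 3.93 after light and 77.9 ± 10.1 in control, which is a description, as the ratio holds the hairpin counts that chose the members. Minocycline A lay between the 2 light libraries and minocycline B between the light libraries and control 2. Minocycline A, with 115000 CPM of rod markers, had a ratio of the cluster to them as low as the light libraries. Per 1000000 counts of 10 cone markers, the values were 5100 and 3240 in control, 949 and 960 after light and 1770 and 3600 with minocycline.

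**Figure D2:**
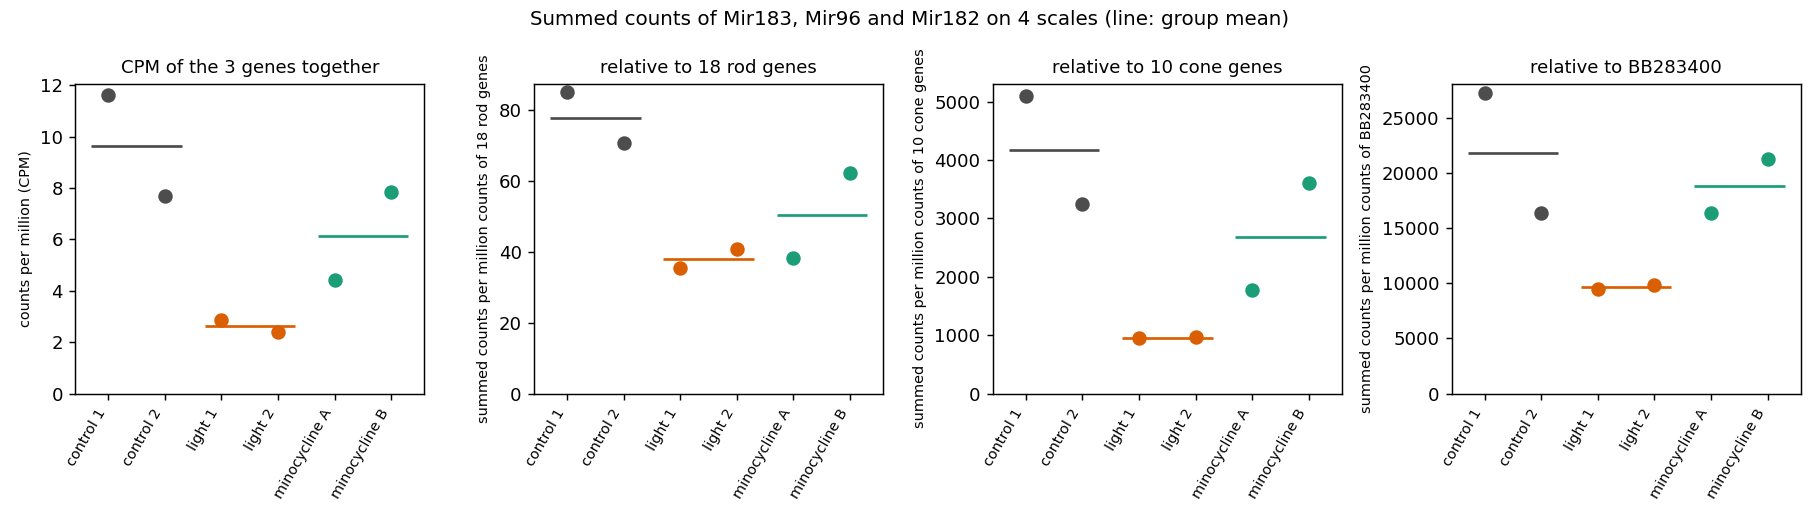
Summed counts of the 3 hairpins in each library as CPM and per 1000000 counts of 18 rod markers, 10 cone markers or the neighbouring RNA BB283400, with the group mean as a line. The light libraries are lowest on 3 of the scales, and on the rod scale minocycline A at 38.4 falls between them.

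Among 18 rod markers tested, 3 fell after light at an adjusted p under 0.05 in edgeR and none rose, where 3.8% of all genes tested fell, with a median log2 fold change of −0.78. These were Nrl, which fell by 0.96 on the log2 scale (adjusted p = 0.0296), Cngb1, a subunit of the rod channel (−0.83, adjusted p = 0.0372), and Guca1b, a guanylate cyclase activator (−0.79, adjusted p = 0.0413). All 10 cone markers failed the test, with a median of 0.25. Of them 1 was at an unadjusted p under 0.05, as were 4144 of the 14349 genes tested. DESeq2 called 17 of the rod markers lower and 0 cone markers, with 766 of the 14349 genes tested called lower.

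Of 16 transcription factors of photoreceptors and their precursors, 4 fell after light and 1 rose, where 3.8% of all genes tested fell and 7.52% rose. Nrl, which directs the rod fate, and Mef2c, an activity-linked factor, both fell by 0.96 on the log2 scale (adjusted p = 0.0296 and 0.0137 in edgeR). Esrrb, a nuclear receptor of rods, fell by 0.78 (adjusted p = 0.0278), as did Prdm1, a factor of photoreceptor precursors (adjusted p = 0.0243). Neurod4, a factor of bipolar and amacrine development, rose by 0.98 (adjusted p = 0.0132), and 5 of 10 bipolar markers also passed as higher. None of the 16 passed in either minocycline comparison, with 6 at an unadjusted p under 0.05 against light and 0 against control. Of all genes tested, 3117 of 14750 and 994 of 14181 were at that p. DESeq2 called 4 of the 16 higher with minocycline than after light, and 463 of the 14750 genes tested. The median of all genes tested lay at 0.00 after light. The calls among rod markers, bipolar markers and transcription factors were lost without control 1, where 4 genes of the whole table were called higher and 0 lower, and without control 2. Without light 2 the calls of rod markers were lost as well, and without light 1 more rod markers and transcription factors were called lower. The number of calls over all genes also changed in each of these fits.

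The genes beside the cluster bear on whether only its uncut transcript was lower. Within 500 kb, 17 genes had rows and 12 were tested. After light, 3 of the 12 fell, where 3.8% of all genes did, 1 rose, where 7.52% did, and 8 were at an unadjusted p under 0.05, as were 4144 of the 14349 genes tested. The nearest row upstream is BB283400, a long non-coding RNA abundant in the retina, also known as Rncr4, which lies 6.89 kb away on the opposite strand. It had 426 and 469 CPM in control, 302 and 242 after light, and 267 and 368 with minocycline. It fell after light by 0.71 on the log2 scale (SE 0.18, adjusted p = 0.0282 in edgeR). With minocycline its log2 fold change was 0.24 against light (adjusted p = 0.568) and −0.45 against control (adjusted p = 0.71). Minocycline A lay between the 2 light libraries and minocycline B between the light libraries and the controls.

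Nrf1, which encodes nuclear respiratory factor 1 and lies 12.5 kb downstream, had 91.7 and 77.1 CPM in control, 60.3 and 48.8 after light and 67.1 and 80.5 with minocycline. It fell after light by 0.63 (adjusted p = 0.0345 in edgeR). Ube2h, a ubiquitin-conjugating enzyme 41.6 kb upstream, had a log2 fold change of −0.32 and did not pass (adjusted p = 0.156). Tsga14, now called Cep41, a ciliary gene 484 kb upstream, fell by 0.96 (adjusted p = 0.0316). Smo, the signal transducer of the Hedgehog pathway 405 kb downstream, rose by 0.91 (adjusted p = 0.042). None of the 12 neighbours passed with minocycline. At an unadjusted p under 0.05 in edgeR were 5 against light and 2 against control, as were 3117 of 14750 and 994 of 14181 genes tested. DESeq2 called 1 neighbour higher and 1 lower against light, where it called 463 and 734 of the 14750 genes. As with the rod markers, the calls among neighbours were lost without control 1, without control 2 and without light 2, and they changed without light 1.

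**Figure D3:**
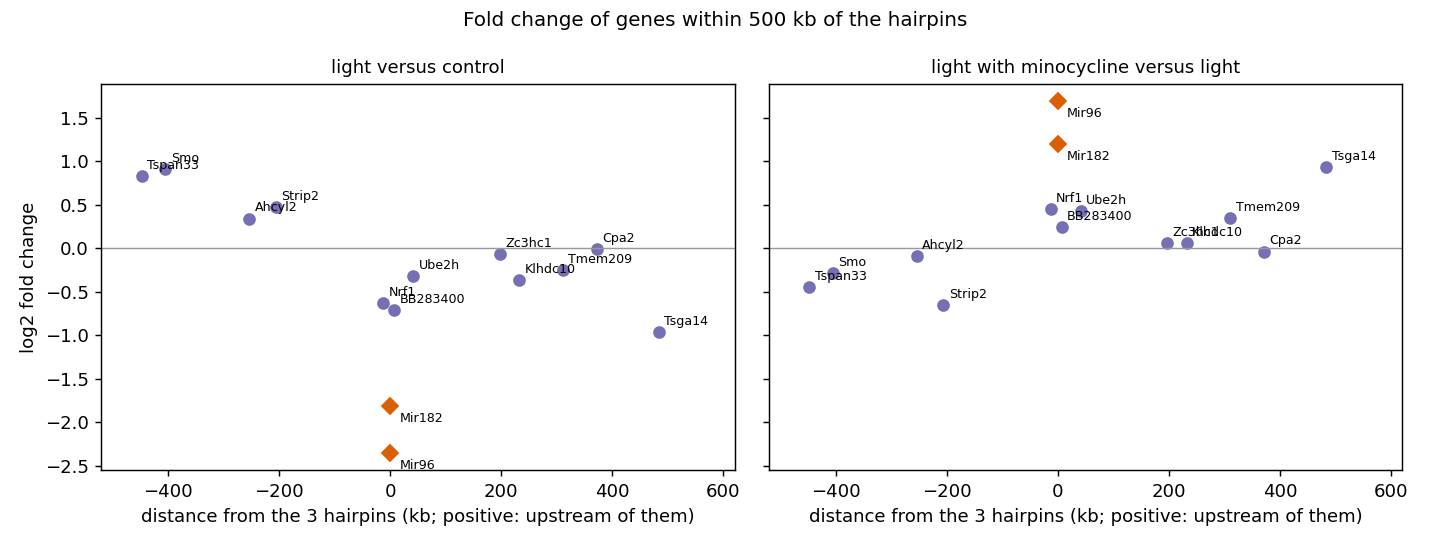
Log2 fold change of the 12 tested genes within 500 kb, by their distance in kb from the hairpins, with Mir96 and Mir182 as diamonds at 0, for light versus control and light with minocycline versus light. After light the nearest genes, BB283400 and Nrf1, are at −0.71 and −0.63, and Mir96 and Mir182 at −2.35 and −1.81.

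Relative to BB283400, the cluster held 27200 and 16400 counts per 1000000 in the controls, 9480 and 9810 after light, and 16400 and 21300 with minocycline. The minocycline libraries fell in the range of the controls. This ratio holds the hairpin counts that chose the members, so its lower value after light is a description only.

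The machinery that cuts and loads microRNAs was measured through 24 genes. None passed the edgeR test in any comparison, with 6 at an unadjusted p under 0.05 after light, 3 with minocycline against light and 0 against control. Of all genes tested, 4144 of 14349, 3117 of 14750 and 994 of 14181 were at that p. DESeq2 called 2 of the 24 lower after light, where it called 766 of all 14349 genes tested lower, and 0 in the minocycline comparisons. There it called 463 higher and 734 lower of 14750 genes against light, and 164 and 4 of 14181 against control. The median log2 fold change of the 24 was −0.20 after light, 0.03 with minocycline against light and −0.16 against control. Drosha stood at 127 and 123 CPM in control, 98.7 and 92 after light and 129 and 121 with minocycline, a log2 fold change after light of −0.39 (adjusted p = 0.0997). Its partner Dgcr8 had a log2 fold change of −0.46 (adjusted p = 0.0644) and Dicer1 of −0.17 (adjusted p = 0.567). The 2 members of highest count, Ddx17 and Ddx5, RNA helicases of the Drosha complex, had log2 fold changes of −0.37 and −0.44 without passing.

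Genes reported as targets of the cluster formed a list of 21, all tested. After light 2 rose, or 9.52% against 7.52% of all genes tested, 1 fell, or 4.76% against 3.8%, and the median log2 fold change was −0.08. These shares lie near those of all genes, so the calls are no result about targets as a group. Windows of 24 bases around a match to the seeds in annotated 3′ UTRs of GRCm38 are shown for those that passed and for well-known targets, with the match of 7 bases in capitals. All match positions are those of the capitals:

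Cacna2d1, miR-182 match at chr5:16371555-16371561, plus strand: gaacttggcTTGCCAAgggtcttt

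Itgb1, miR-96 match at chr8:128732388-128732394, plus strand: acactgctaGTGCCAAtgcagggc

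Itgb1, miR-183 match at chr8:128732674-128732680, plus strand: aaaacctgtGTGCCATtgtgagtt

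Myrip, miR-96 match at chr9:120474564-120474570, plus strand: ggtttccttGTGCCAAataagtac

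Slc1a1, miR-96 match at chr19:28912365-28912371, plus strand: ccagttaatGTGCCAAattttcca

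Casp2, miR-96 match at chr6:42282478-42282484, plus strand: tgccatcagGTGCCAAataaatgt

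Adcy6, miR-182 match at chr15:98591780-98591786, minus strand: tgtttccatTTGCCAAatcctagt

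Cacna2d1, a calcium channel subunit, rose from 43.5 and 47 CPM in control to 63.2 and 78 after light (log2 fold change 0.65, adjusted p = 0.0279 in edgeR). It stood at 46.1 and 39.6 with minocycline, where its log2 fold change against light was −0.70 (adjusted p = 0.0804). Itgb1, the integrin beta 1 chain made by many cell types, rose from 46.1 and 45.6 CPM to 61.5 and 99 (0.81, adjusted p = 0.0408), with 58.1 and 63.9 under minocycline. Microglia markers were higher in the same libraries, as given above, and their part in this result was not tested. Myrip, a linker of the motor myosin VIIa found in the retinal pigment epithelium and photoreceptors, fell from 104 and 104 CPM to 64.6 and 64.4 (−0.69, adjusted p = 0.0166). The part of the pigment epithelium markers, given above for each group, in the Myrip result was not tested.

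Slc1a1, a glutamate transporter and retinal target of miR-96, had 22.8 and 30.9 CPM in control and 31.1 and 30.9 after light (log2 fold change 0.21, adjusted p = 0.493 in edgeR). Casp2, a caspase, had a log2 fold change of −0.09 (adjusted p = 0.737), and Adcy6, an adenylate cyclase, of −0.53 (adjusted p = 0.0938). These targets, for which a role in the retina has been described, had log2 fold changes of either sign. The calls among the 21 after light were lost without control 1, control 2 or light 2, and they changed without light 1. With minocycline, 0 passed against light, with 7 at an unadjusted p under 0.05, as were 3117 of the 14750 genes tested. DESeq2 called 3 of the 21, 2 of them higher, where it called 463 of 14750 genes higher and 734 lower. Against control 1 rose, or 4.76% against 0.162% of all genes tested. This was Aqp5, a water channel of the cornea and glands, with 2.06 and 1.06 CPM in control, 3.51 and 4.23 after light and 13.5 and 22.2 with minocycline (3.55, adjusted p = 0.0366). The summed CPM of 8 markers of the corneal surface, 6 of them tested, was 4.86 to 11 in control, 8.53 to 18.1 after light and 163 to 251 with minocycline, and their part in the Aqp5 result was not tested. Without control 1 or without control 2, Aqp5 was not called.

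Seed matches were then counted over all 3′ UTRs, without a choice of targets. The searched letters were GTGCCAT for miR-183, GTGCCAA for miR-96 and TTGCCAA for miR-182, on the transcribed strand. Of 19997 rows with an annotated 3′ UTR, 1944 held a match for miR-183, 1734 for miR-96 and 2287 for miR-182. After light, the median log2 fold change was −0.02 over 1604 tested genes with a match for miR-183, 0.06 over 1478 for miR-96 and 0.02 over 1816 for miR-182. It was 0.00 over all 13643 tested genes with a 3′ UTR. The share that rose was 7.11% for miR-183, 8.25% for miR-96 and 7.76% for miR-182, against 7.78% of all. The share that fell was 4.49%, 4.26% and 4.52%, against 3.79%. Genes with a match for both miR-96 and miR-182 rose in 36 of 343 cases, or 10.5%, and fell in 15, or 4.37%, with a median of 0.04. DESeq2 called 36 of them higher and 24 lower, where it called 1149 of all 14349 genes tested higher and 766 lower. Genes with matches had longer 3′ UTRs, with medians of 2398.5 to 2477 bases for the single seeds and 3818 bases for genes matching both, against 996 over all genes. The shares and medians of the 3 single-seed sets lay near those of all genes. In the set with both matches, the shares of higher and of lower genes were both above those of all genes, 10.5% against 7.78% and 4.37% against 3.79%. These differences were not tested. Without control 1, 0 to 2 genes of each set were called higher and the medians were −0.02, 0.06 and 0.02. In both minocycline comparisons, the medians of the 3 sets lay between −0.02 and 0.04.

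**Figure D4:**
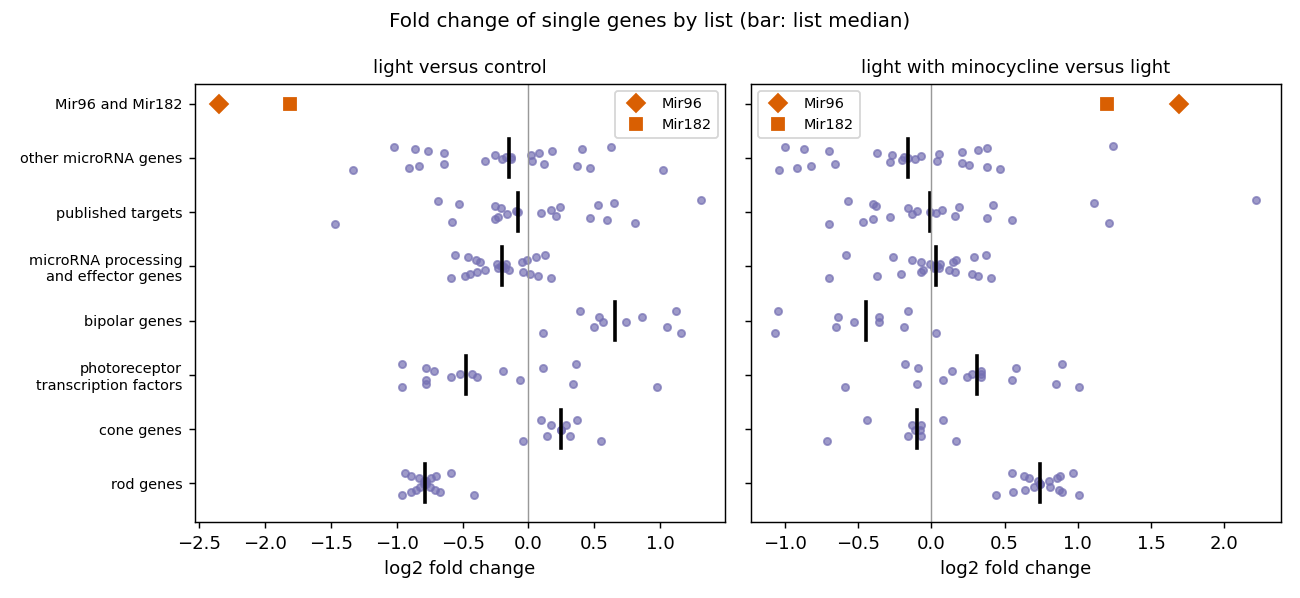
Log2 fold change of single genes in 7 lists, with the list median as a bar, and of Mir96 and Mir182, for light versus control and light with minocycline versus light. Rod genes lie around −0.78 after light and other microRNA genes range from −1.33 to 1.02, while Mir96 and Mir182 lie at −2.35 and −1.81.

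The other microRNA rows were described beside the cluster. Besides the members, 657 rows were named as microRNA genes, of which 404 had no counts in any library. By summed counts Mir182 ranked 2 of 660, after Mir3064 with 3701 counts, Mir96 ranked 20 and Mir183 ranked 33. Mir3064 overlaps the protein-coding gene Ddx5, as 17 of the 24 other microRNA rows tested after light overlap a protein-coding gene, whose reads their counts may hold. None of the 24 passed in edgeR or DESeq2, with 1 at an unadjusted edgeR p under 0.05, against 4144 of the 14349 genes tested. The log2 fold changes of the 24 ranged from −1.33 for Mir1968 to 1.02 for Mir1839. Of 25 tested with minocycline against light and 21 against control, 0 passed, each with 1 at an unadjusted p under 0.05 and 0 by DESeq2. Of all genes tested, 3117 of 14750 and 994 of 14181 were at that p. Mir1968 had 2.35 and 2.4 CPM in control, 0.818 and 1.05 after light and 2 and 2.39 with minocycline. Its log2 fold change with minocycline against light was 1.24 (SE 0.40, adjusted p = 0.145 in edgeR), close to the 1.20 of Mir182.

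The genes nearest in pattern were found by the root mean square (RMS) difference of log2 CPM, after each gene was centred on its mean over the 6 libraries. Likeness over 6 libraries in 3 groups is a description. For Mir96, the nearest of 14348 other genes were the uncharacterized 4930404I05Rik (RMS 0.264), Dusp1 (0.319), Mir182 (0.327), Egr1 (0.369) and Junb (0.377). Dusp1 encodes a phosphatase of MAP kinases, and Egr1 and Junb encode transcription factors induced within minutes of a stimulus. Dusp1 had 124 and 41.5 CPM in control, 17.5 and 27.7 after light and 53.1 and 71 with minocycline. Egr1 had 407 and 143 CPM in control, 63.2 and 135 after light and 147 and 306 with minocycline. Control 1 was highest in both, as in Mir96, and light 1 was lowest. Egr1 had a log2 fold change after light of −1.47 with a standard error of 0.78 and did not pass the test (adjusted p = 0.353 in edgeR).

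For Mir182, the nearest genes were Tnfaip3 (RMS 0.222), Plekhf2 (0.238), Tmem150b (0.247), 9130227L01Rik (0.264) and Glb1l3 (0.269). Tnfaip3, the ubiquitin-editing enzyme A20 that restrains NF-kappaB signalling, had 527 and 369 CPM in control, 224 and 156 after light and 305 and 453 with minocycline. Glb1l3, a galactosidase-like gene, had 53.5 and 48.2, 23.5 and 18.2, and 39.4 and 47.4. In these genes, as in Mir182, light 2 was the lowest library. Mir96 came at rank 25 for Mir182.

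For Mir183, the nearest were Rnf183, an E3 ubiquitin ligase (RMS 0.122), Gm13031, Pole2, Fam209 and Trim60 (0.199). All of these were low in minocycline A as well as in the light libraries. Mir182 came at rank 360 and Mir96 at rank 1348 for Mir183, which rests on 3 to 10 counts a library. When likeness was taken from the rank order of the libraries, only 2 of the 10 nearest genes of Mir183, 2 of Mir96 and 6 of Mir182 were the same.

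**Figure D5:**
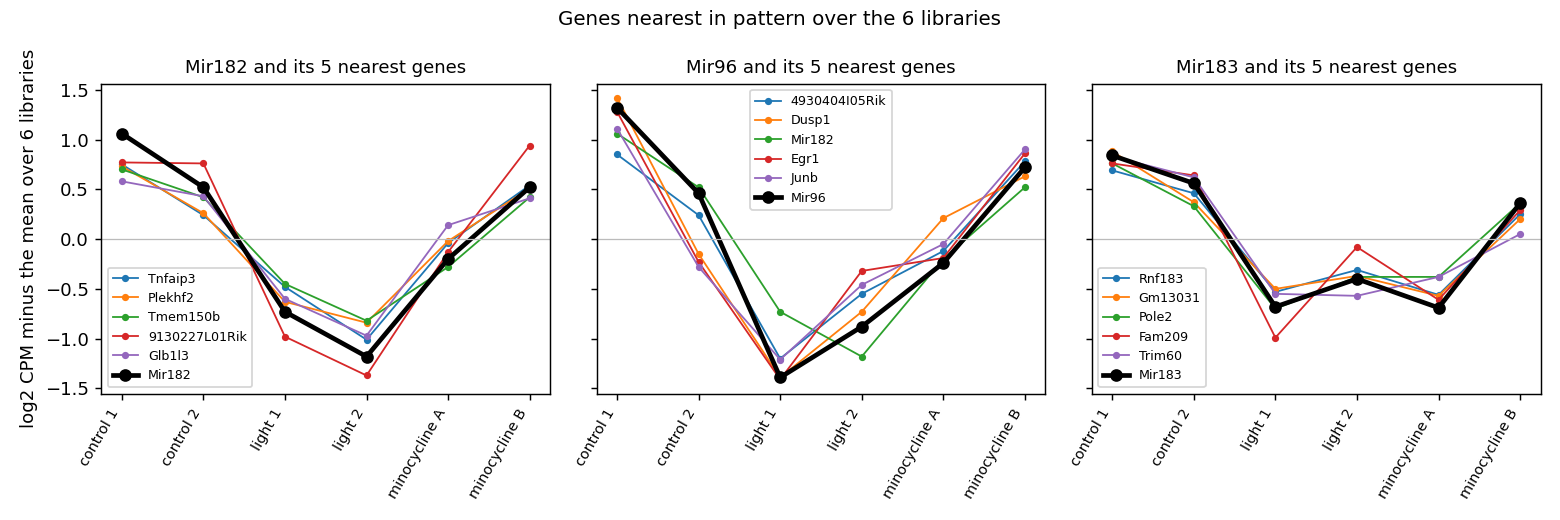
Log2 CPM of Mir182, Mir96 and Mir183 (black) and of the 5 genes nearest to each, centred on the mean over the 6 libraries. The light libraries form the low point for Mir182 and Mir96, with light 2 lowest for Mir182 and light 1 for Mir96, and Mir183 is as low in minocycline A.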

How the data were processed

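Retinal RNA of 6 libraries was analysed. The authors prepared stranded poly-A libraries and, in the RNA Express workflow, aligned reads with STAR to mm10 and assigned them to genes. The authors deposited counts per gene, which the study calls normalized. They were whole numbers with unequal totals per library and were treated as counts without scaling, on which the counting intervals depend. The annotation, the version of STAR, the use of the strand and the handling of reads with several hits are not given in the sources used here. Reads that reach beyond a hairpin may or may not have been counted, which bears on the level of all 3 rows. No value column was left out (0 unused).

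Groups were taken from the sample titles. Pairs of groups were compared in R 4.3.3 with edgeR 4.0.16 (filterByExpr, TMM, robust quasi-likelihood test, Benjamini-Hochberg adjustment over all genes tested, adjusted p under 0.05), in place of the DESeq2 of the study. DESeq2 1.42.0 was an alternative. Log2 CPM used a prior count of 2. The replicate numbers were checked as pairs: deviations from the group means correlated with r = −0.00794 over 14349 genes between control and light libraries of the same number, and genes are no replicates. The scripts were tested on simulated data. Genes were named when they were members, the 5 nearest in pattern, neighbours within 500 kb that passed, the nearest coding neighbours, or list genes that passed (otherwise the 2 of highest count); Dicer1, Drosha, Dgcr8 and the targets Slc1a1, Casp2 and Adcy6 were added after their values were seen, as were Ddx5 as an overlapping gene, the microRNA rows at the ends of ranges, and the genes at the fold limit. The members, lists and tests were chosen with earlier results of these data known. Gene symbols matched RefSeq for 21571 rows directly and 1675 by a synonym. 3′ UTRs were taken from the GENCODE M21 annotation as the union over coding transcripts. The values of 1 gene are not reported here.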

Additional observations from a re-analysis of the deposited data

How the results depend on the processing

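Under the other normalizations, filters, test and fits tried, the log2 fold changes of Mir96 and Mir182 kept their sign, from −2.40 to −2.12 for Mir96 and −1.81 to −1.57 for Mir182 after light. With all libraries of a comparison, Mir183 was fitted only without the filter, although it passed the filter in some fits with 1 library left out. With minocycline against light, they ranged from 1.50 to 1.73 for Mir96 (adjusted p 0.164 to 0.452) and from 1.02 to 1.21 for Mir182 (0.114 to 0.195), and with 1 library left out from 1.06 to 2.16 and 0.77 to 1.55. Leaving out libraries moved Mir96 after light to between −2.76 and −1.84, the latter without control 1, Mir183 after light to between −1.81 and −1.39, and Mir183 with minocycline against control to between −1.82 and −0.38, the former without minocycline B. A prior count of 0.5 gave −1.51 in place of −1.24 for the difference of mean log2 CPM of Mir183 after light. By rank order, 2, 2 and 6 of the 10 genes nearest to Mir183, Mir96 and Mir182 were shared. The cause of these shifts was not tested.

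The counts of genes called after light, 1079 higher and 545 lower, became 1930 and 133 with total library size, which moved the median of all genes by 0.24. They were 1668 and 857 with the replicate block, 415 and 4 with the fold cutoff of the study, and 1724 and 1092 at an adjusted p under 0.1. No filter gave 829 lower and 1 fit of all libraries 351 lower. Leaving out 1 library gave 4 to 1683 higher and 0 to 462 lower, with 4 and 0 without control 1, 20 and 37 without control 2, and 443 and 54 without light 2. The check of the replicate numbers found no shared pattern between control and light. With 2 libraries a group it cannot show whether the numbers pair samples, so the replicate block is only an alternative here. For either comparison with minocycline, no paired analysis could be made, as both columns share 1 header.

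With minocycline against light, 2 higher and 6 lower became 463 and 734 with DESeq2, 247 and 485 with no filter, 135 and 353 in 1 fit of all libraries, 0 and 0 with total library size, 0 and 2 with DESeq2 size factors, 5 and 10 without robust estimation, and 277 and 605 at an adjusted p under 0.1. At least 10 counts gave 1 higher. Leaving out 1 library gave 6 to 188 higher and 5 to 706 lower. Against control, 23 higher and 0 lower became 164 and 4 with DESeq2, 183 and 4 with no filter, 0 higher in 1 fit of all libraries, 3 with at least 10 counts and 48 at an adjusted p under 0.1. Leaving out 1 library gave 3 to 438 higher and 0 to 42 lower. Unadjusted p lay under 0.05 for 4144, 3117 and 994 genes. Depth limits Mir183, with 39 counts in all.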
